A study of Mus musculus with 10 samples.

Results

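The genes described here are 9 mouse histone genes, listed as polyadenylated histone and histone variant genes. They include the linker histone genes Hist1h1c and H1f0 and the core histone gene Hist1h2bc. The others are the H2A variant genes H2afj, H2afx, H2afy and H2afz, and the H3.3 genes H3f3a and H3f3b. The genes were taken by symbol from a table of 18869 gene identifiers, and all 9 were found. They were chosen by a listing made with their CPM differences between the genotypes, between the title letters and in the interaction of both already known, so their values below are a description. No p-value is given for any of them, and where one is said to have passed the threshold of the fit over all genes, that too describes the values that chose it. A filter on low values, stated below, kept 8075 genes and 8 of these 9; H3f3a was the gene that did not pass.

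The series measured liver RNA of C57BL/6 mice aged 6 weeks, in 5 wild-type (WT) libraries and 5 libraries of a line named Nrf2Act-hep. The label of that line describes NRF2, the transcription factor that switches on antioxidant and detoxification genes, as activated specifically in the liver; how it was activated, and in which cells, is not given in the sources used here. In both groups the mice were on regular chow and went without food for 15 h before liver was taken and frozen. Each title also carries the letter M or F, with 2 M and 3 F libraries in WT and 3 M and 2 F libraries in Nrf2Act-hep. Whether every library is a separate mouse is not stated, so every error below is the spread between libraries, and part of it may be technical.

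Most histone proteins that package new DNA come from clustered genes that are transcribed in S phase. Their messages end in a short stem-loop that the protein SLBP binds, and they have no poly(A) tail. Variant histone genes are transcribed throughout the cell cycle and make ordinary polyadenylated messages, so they supply chromatin in cells that seldom divide, such as adult hepatocytes. A few clustered genes can also make a polyadenylated message from a site beyond the stem-loop. The assay, Lexogen QuantSeq FWD, primes on poly(A) and sequences the stretch beside it, so it is designed to count the tailed form of a histone message. By design each transcript gives tags from its end alone, so levels of different genes can be set side by side as tags without a correction for length.

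Both kinds of ending were searched in the longest protein-coding model of each gene alone. The model of Hist1h2bc has 2 exons, and sequence spliced out of it was not searched. A stem-loop was searched in the 100 bases after the stop codon, as a stem of 6 bases that starts GG and pairs with itself across a loop of 4 bases that starts TT. Of 21901 protein-coding genes in GENCODE M21, 50 held one (0.228%). Hist1h1c and H2afx were the 2 of 9 genes here that did, against 40 of the 63 clustered genes outside these 9. Some of those 63 models end at or near the stop codon, where no stem-loop could be found. Of the 44 with at least 60 bases after the stop codon, 38 held one. In Hist1h1c the stem-loop started 25 bases after the stop codon and the model ran on for 840 bases beyond it. In H2afx it started 47 bases after the stop codon and 822 bases followed. The sites are printed as DNA on the coding strand (GRCm38), with the stem and loop in capitals. Beside them is that of Hist1h1e, the gene with the most tags among the 63 clustered genes outside these 9. They lie at chr13:23739507-23739532 (+) in Hist1h1c, at chr9:44335235-44335260 (+) in H2afx and at chr13:23621777-23621802 in Hist1h1e.
Hist1h1c: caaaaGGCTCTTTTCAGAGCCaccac
H2afx: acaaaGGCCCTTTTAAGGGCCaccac
Hist1h1e: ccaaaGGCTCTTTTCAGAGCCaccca

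The other ending is a cleavage signal, AATAAA or ATTAAA, near the end of the model. One of these hexamers lay in the last 50 bases of the models of Hist1h1c, H1f0, H2afj, H2afx, H2afz and H3f3a, and neither was found there in those of Hist1h2bc, H2afy and H3f3b. The windows of the linker histone genes and of H2afx are shown with the hexamer in capitals, since the assay reads tailed ends; the table holds no read positions, so which ends the tags came from was not measured. They lie at chr13:23740334-23740359 (+) in Hist1h1c, chr15:79030475-79030500 (+) in H1f0 and chr9:44336035-44336060 (+) in H2afx.
Hist1h1c: atgcttctAATAAAaagcgtttagtt
H1f0: aactttaaAATAAAactggaaaggaa
H2afx: ctaattttATTAAAggatcgtttggt

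The deposited values are CPM, in which the reads of each library are scaled to a common total. The reads behind them could be recovered and came to 1267745 to 2287727 per WT library and 2167528 to 2806670 per Nrf2Act-hep library. A count of 3 reads, used as the floor, equals 1.31 to 2.37 CPM in WT against 1.07 to 1.38 CPM in Nrf2Act-hep before TMM scaling, which adjusts each library for its composition. Of 9 genes used to check the genotype labels, 7 rose in Nrf2Act-hep, among them Cbr3, Nqo1 and Gstm1, which encode enzymes of detoxification, with fitted log2 differences of 7.17, 3.07 and 2.73. Nfe2l2, the gene of NRF2 itself, went from 59.8 ± 11.99 CPM in WT to 40.8 ± 4.16 CPM (SD, n = 5 each; limma, adjusted p = 0.044), a call lost in 12 of 22 other settings. The hepatocyte markers made the largest summed level of any marker list, 42850 to 50329 CPM in WT against 30602 to 39714 CPM in Nrf2Act-hep, with 3 of 7 lower there. In bulk liver, fewer cells of a type and less RNA per cell cannot be told apart.

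The 9 genes held most of the histone tags in these livers. They had 12846 reads in all, of which the clustered genes Hist1h1c and Hist1h2bc supplied 2754 and 3266. The 63 clustered genes outside the 9 had 759 reads, of which Hist1h1e alone supplied all but 231. Of these 63 genes, 27 had a row in the table and 8 reached 10 reads over the 10 libraries. The levels spanned a wide range, from means over all 10 libraries of 158.7 CPM for H3f3b, 157.1 CPM for Hist1h2bc and 139.3 CPM for Hist1h1c, through 67.3 CPM for H1f0 and 65.1 CPM for H2afy, to 19.1 CPM for H2afj, 13.7 CPM for H2afx, 6.77 CPM for H2afz and 4.11 CPM for H3f3a. Of the neighbours in that order, only H2afy and H2afj had ranges over the libraries that did not overlap. H2afv, which encodes a second form of H2A.Z and is not among the 9, had 31.7 CPM, more than H2afz.

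**Figure D1:**
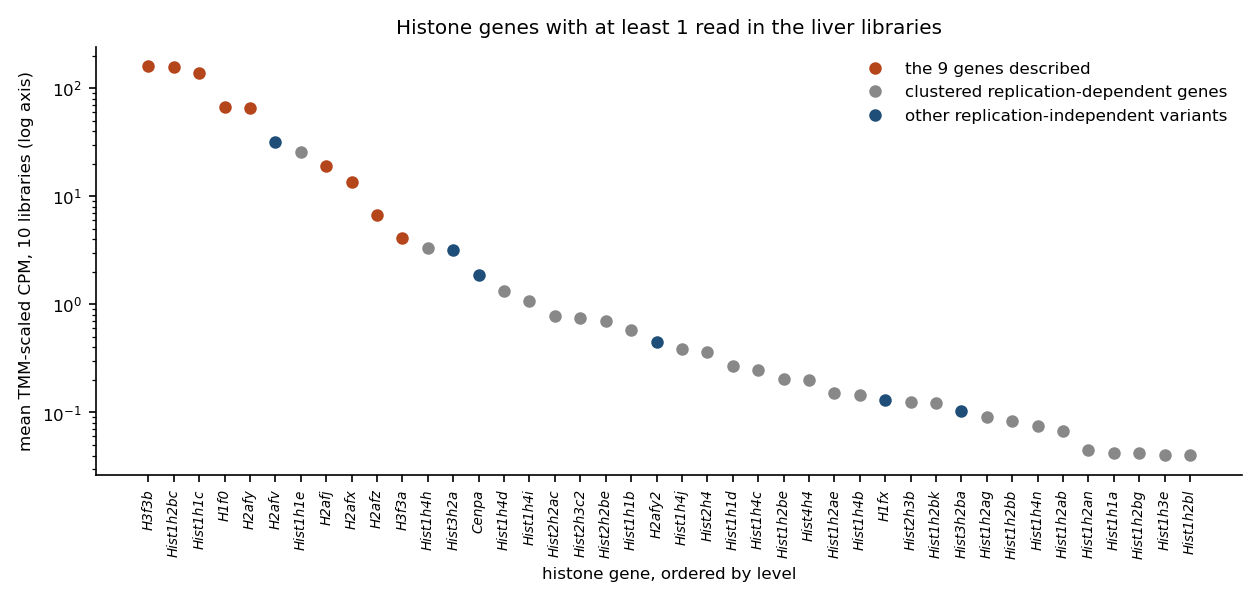
Mean TMM-scaled CPM over 10 liver libraries (log axis) of each histone gene with at least 1 read, ordered by level, with the 9 genes described in orange, other clustered replication-dependent genes in grey and other variants in blue. The 9 genes, of which Hist1h1c and Hist1h2bc are also clustered, lie between 4.11 CPM (H3f3a) and 158.7 CPM (H3f3b). Hist1h1e at 25.9 CPM is the one clustered gene outside the 9 in that range.

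Of the clustered genes with a stem-loop, 19 had a model that ran on for over 100 bases after it, and these held 629 reads. The other 21 ended within 100 bases and held 101 reads. The gap between these sums was Hist1h1e, with 528 reads: without it the other 18 long models held 101 reads, as many as the short ones. Every 75-base stretch in the last 300 bases of its model also occurs in other annotated genes, so its count is uncertain.

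The same check of shared sequence bears on the 9 genes. None of the 75-base stretches from the last 300 bases of Hist1h1c, Hist1h2bc, H1f0, H2afj, H2afx, H2afy and H3f3b occurred in another annotated gene. For H2afz 19.1% did, in 3 processed pseudogenes, and for H3f3a 26.2% did, in 27 other genes. The authors' treatment of such reads is not given in the sources used here, so the low levels of H2afz and H3f3a are uncertain.

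Linker histones bind where DNA enters and leaves the nucleosome and help compact chromatin. H1f0 encodes H1.0, the linker histone that accumulates in differentiated cells that have left the cell cycle, and lies at chr15:79028450-79030504 (+). Its TMM-scaled CPM was 65.5 and 60.3 in the WT M libraries and 96.8, 100.4 and 121.6 in the WT F libraries. In Nrf2Act-hep it was 39.6, 57.1 and 36.9 in the M libraries and 46.4 and 48.0 in the F libraries. All 5 Nrf2Act-hep libraries lay below all 5 WT libraries, and the WT F libraries were the highest. The means were 88.9 ± 25.6 CPM in WT against 45.6 ± 7.91 CPM in Nrf2Act-hep (SD, n = 5 each). The fitted difference, Nrf2Act-hep minus WT with the letter in the model, was -0.83 ± 0.15 (SE) on the log2(CPM + 1) scale, on which all differences below are given.

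H1f0 was the 1 of 8 genes that passed the threshold between the genotypes (limma, adjusted p under 0.05 over all genes), and it was lower. Over all 8075 genes 4.64% passed, 2.79% higher and 1.86% lower. It was also the 1 of 8 whose genotypes did not overlap, where 5.14% of all genes did not. Since the genes were listed with this contrast known, nothing is read from these shares. The median difference over the 8 genes was 0.02, and over all genes 0.01. H1f0 passed in 11 of 12 other settings and in 10 of 10 fits with 1 library left out. The setting in which it did not pass used the M libraries alone, where the difference was -0.51. Within F it was -1.15 (95% interval -1.55 to -0.74), and within M -0.51 (95% interval -0.92 to -0.11). The F effect minus the M effect was -0.63 (95% interval -1.20 to -0.06) and did not pass the threshold.

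Hist1h1c encodes the linker histone H1.2 and lies within the large histone cluster at chr13:23738808-23740367 (+). The Hist1h1c level was 91.9 and 68.6 CPM in the WT M libraries and 282.7, 286.8 and 200.4 in the WT F libraries. In Nrf2Act-hep it was 90.2, 126.6 and 86.6 in the M libraries and 82.4 and 76.3 in the F libraries. The 3 WT F libraries stood above all 7 others, and the WT M range overlapped that of each Nrf2Act-hep group. Over genotypes the means were 186.1 ± 103.0 CPM in WT against 92.4 ± 19.8 CPM in Nrf2Act-hep (SD, n = 5 each), with a fitted difference of -0.67 ± 0.39 (SE) that did not pass.

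The fitted genotype difference of Hist1h1c was -1.66 within F (95% interval -2.08 to -1.24) and 0.32 within M (95% interval -0.10 to 0.74). The F effect minus the M effect was -1.99 (95% interval -2.58 to -1.39). Hist1h1c was 1 of 2 genes among the 8075 tested that passed the threshold for this difference of differences, where DESeq2 called 15 genes and a fit with no filter 18. It was thus 1 of 8 here against 0.0248% of all genes; the contrast was known when the genes were listed, so neither the share nor the call is support for the difference. It passed in 9 of 9 other settings and in 9 of 10 fits with 1 library left out, and did not pass without WT replicate 2, an M library, where the value was -1.78. The other gene was Mt2, a metallothionein.

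H3f3b, one of the genes of histone H3.3, lies at chr11:116021912-116027962 (-). H3.3 replaces H3 outside S phase, at active genes through the chaperone HIRA and at silent repeats through DAXX and ATRX. The H3f3b level, again as TMM-scaled CPM, was 108.1 and 106.3 in the WT M libraries and 190.4, 315.3 and 204.4 in the WT F libraries. In Nrf2Act-hep it was 136.2, 149.97 and 138.5 in the M libraries and 113.0 and 125.2 in the F libraries. All 3 Nrf2Act-hep M libraries lay above both WT M libraries, while both Nrf2Act-hep F libraries lay below the 3 WT F libraries. Over all genes, 32.6% did not overlap between the genotypes within M and 26.7% within F, in either direction. The genotype difference was 0.40 within M (95% interval 0.00 to 0.79) and -0.95 within F (95% interval -1.35 to -0.55). The difference between them was -1.35 (95% interval -1.91 to -0.79), which did not pass the threshold in the limma fit and passed with DESeq2, with no filter, and without WT replicate 3 or WT replicate 5. Over both letters the genotype difference was -0.28 ± 0.24 (SE), and with 1 library left out it ran from -0.44 (without WT replicate 2) to -0.10 (without Nrf2Act-hep replicate 9), and it was -0.11 when WT replicate 4 was dropped and -0.15 when Nrf2Act-hep replicate 10 was.

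**Figure D2:**
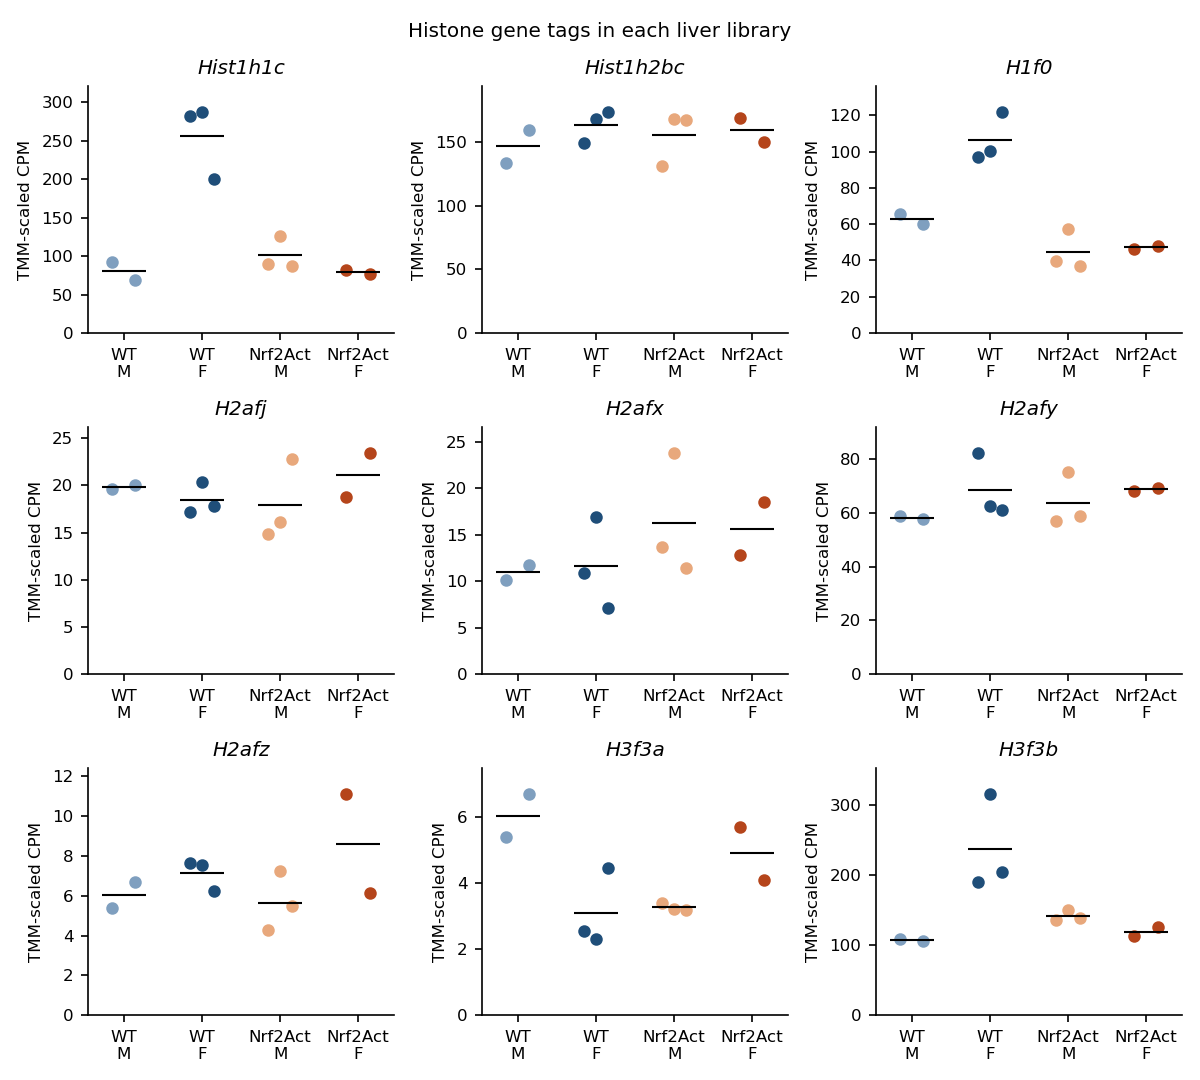
TMM-scaled CPM of each of the 9 genes in every library, as 1 point per library, by genotype and title letter, with a black line at the mean of each group and every axis starting at 0. The 3 WT F libraries stand above the 7 others for Hist1h1c, H1f0 and H3f3b, while Hist1h2bc lies between 131.5 and 173.3 CPM in all of them.

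Hist1h1c, H1f0 and H3f3b shared the high WT F level. In each the 3 WT F libraries were above all 7 others, which held for 3 of 8 genes here and 2.75% of all genes. The same 3 were the genes whose F libraries did not overlap between the genotypes, against 26.7% of all genes. For the M libraries this held for 2 of 8, H1f0 and H3f3b, against 32.6% of all genes. The WT M and WT F libraries did not overlap for these 3 and H2afy, 4 of 8 against 27.1%. The F minus M difference within WT was 1.66 for Hist1h1c, 1.10 for H3f3b and 0.74 for H1f0. Within Nrf2Act-hep the corresponding values were -0.33, -0.25 and 0.11, each with a 95% interval that held 0. For F minus M over both genotypes, 0 of 8 genes passed the threshold with limma, with edgeR or with DESeq2, while 1 of 8 had an unadjusted p under 0.05 by each tool, against 10.2% of all genes by limma; over all genes 1.16% passed, 0.57% higher and 0.594% lower in F. The differences were 0.67 ± 0.39 for Hist1h1c and 0.43 ± 0.15 for H1f0 (SE).

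The summed markers of neutrophils were also highest in the WT F libraries. The 3 of 4 markers in the table, S100a8, S100a9 and Retnlg, summed to 37.6 to 98.9 CPM in the WT F libraries and to 9.44 to 15.5 CPM in the other 7 libraries. The order within WT F was not the same for all genes. Each marker was highest in WT replicate 5, where H1f0 was also highest and Hist1h1c was the lowest of the WT F libraries. H3f3b was highest in WT replicate 4. S100a8 and S100a9 were each higher in all WT F libraries than in the other 7. Retnlg was not: WT replicate 3, an F library, had 2.547 CPM, below WT replicate 1 at 2.703 CPM and Nrf2Act-hep replicate 6 at 2.554 CPM. Ly6g, a defining marker, had no row in the table, so no value can be given for it. None of the 2 markers that passed the filter was called in any comparison by limma. Other marker sums also separated the WT letters. Cholangiocyte markers summed to 32.5 to 38.8 CPM in WT F and 63.5 to 72.0 CPM in WT M, sinusoidal endothelial markers to 304.3 to 339.0 CPM and 251.1 to 298.0 CPM, and stellate cell markers to 473.1 to 547.4 CPM and 394.2 to 469.6 CPM. Unlike the neutrophil sum, each of these overlapped between WT F and at least 1 Nrf2Act-hep group. Summed levels of B cell markers were at most 6.68 CPM, and those of T or NK cell markers at most 8.09 CPM. Depth also moved with the letter in WT, from 1267745 and 1481260 reads in the M libraries to between 1639434 and 2287727 in the F libraries, while the Nrf2Act-hep libraries were deeper than most of both. Within M the neutrophil sum was 11.7 to 13.5 CPM in both genotypes, and H1f0 was at 36.9 to 57.1 CPM in Nrf2Act-hep and at 60.3 and 65.5 CPM in WT. The part of these cells and of depth in the WT F values, and in the H1f0 values within M, was not tested.

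**Figure D3:**
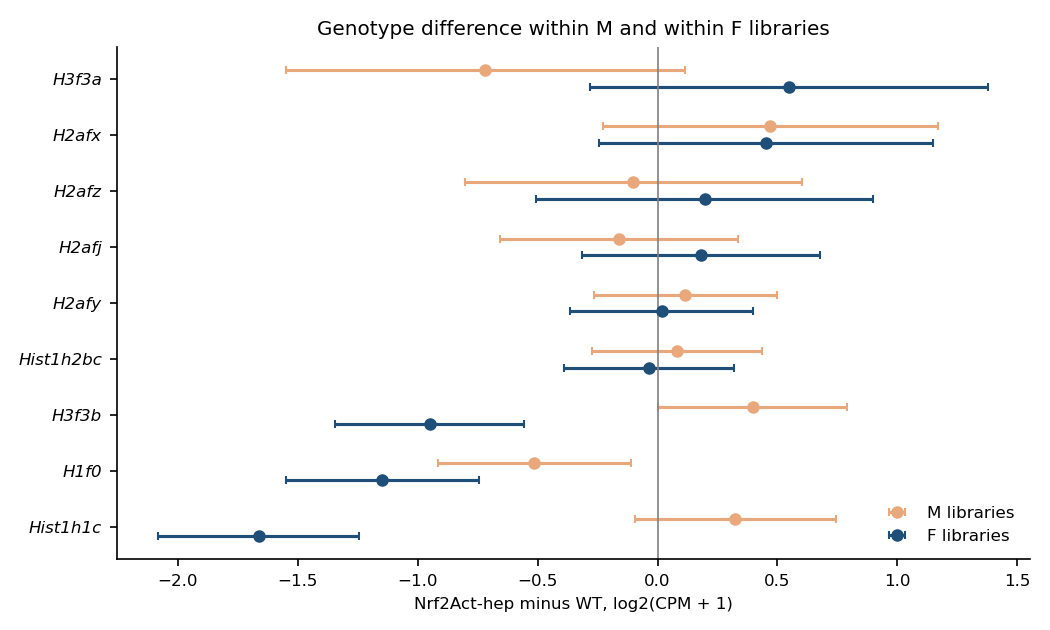
Nrf2Act-hep minus WT for the 9 genes, on the log2(CPM + 1) scale, within the M libraries (orange, 2 WT and 3 Nrf2Act-hep) and within the F libraries (blue, 3 WT and 2 Nrf2Act-hep), with bars for the 95% interval of the fitted difference. Hist1h1c and H3f3b lie left of 0 in F and at or right of 0 in M, and H1f0 lies left of 0 in both; H3f3a did not pass the filter and its values come from a fit with no filter.

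The linker histone messages were also summed. Hist1h1c, H1f0 and Hist1h1e together made 149.8 to 183.8 CPM in the WT M libraries, 343.0 to 423.3 CPM in WT F, 143.1 to 213.5 CPM in Nrf2Act-hep M and 133.4 to 155.7 CPM in Nrf2Act-hep F. The share of Hist1h1c in this sum was 45.8% to 50% in WT M and 58.4% to 68.4% in WT F, and 52.9% to 60.5% over the 5 Nrf2Act-hep libraries. The share of H1f0 was 23.4% to 40.2% in WT and 24.0% to 36.0% in Nrf2Act-hep. The ranges of the genotypes overlapped for both shares over all libraries. Within M the Hist1h1c share did not overlap, at 45.8% to 50% in WT and 54.6% to 60.5% in Nrf2Act-hep, nor within F, at 58.4% to 68.4% and 52.9% to 57.2%, where it was the lower in Nrf2Act-hep. The H1f0 share within M was 35.7% to 40.2% in WT and 24.0% to 26.7% in Nrf2Act-hep. For the levels of single genes, 32.6% of all genes did not overlap within M and 26.7% within F. Hist1h1e, whose count is uncertain, made up 6.10% to 21.4% of the sum over the libraries, so the shares are uncertain too.

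H3f3a encodes the same H3.3 protein as H3f3b. Their coding sequences are both 411 bases long, differ at 95 of them and are 76.9% identical. H3f3a lies at chr1:180800832-180813943 (-) and had 84 reads in all, 34 in WT and 50 in Nrf2Act-hep. In TMM-scaled CPM it was 5.41, 6.69, 2.55, 2.32 and 4.45 in WT replicates 1 to 5 and 3.41, 3.22, 3.19, 5.72 and 4.11 in Nrf2Act-hep replicates 6 to 10. The genotypes overlapped as a whole, while both WT M libraries lay above the 3 Nrf2Act-hep M libraries. Among the genes that passed the filter, 32.6% did not overlap between the genotypes within M. Fitted with no filter on low values, the difference was -0.72 within M (95% interval -1.55 to 0.11) and 0.55 within F (95% interval -0.28 to 1.38), so both intervals held 0. The F effect minus the M effect was 1.27 (95% interval 0.09 to 2.44) for a gene with 4 to 17 reads in each library. H3f3b supplied 94.1% to 99.3% of the counted H3.3 tags in every library. The summed H3.3 level thus followed H3f3b, at 113.0 to 113.5 CPM in WT M and 192.9 to 317.6 CPM in WT F. The share is uncertain, since 26.2% of the 75-base stretches of H3f3a occur in other genes and none of those of H3f3b do.

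Hist1h2bc, a core histone H2B gene of the same cluster as Hist1h1c at chr13:23684199-23692908 (+), had values that overlapped in all 4 groups. Its TMM-scaled CPM was 133.8, 159.8, 149.0, 168.4 and 173.3 in WT replicates 1 to 5 and 131.5, 168.5, 167.7, 168.8 and 150.2 in Nrf2Act-hep replicates 6 to 10. The ranges of the genotypes were nearly the same. The fitted difference was 0.02 ± 0.12 (SE), with 95% intervals of -0.27 to 0.44 within M and -0.39 to 0.32 within F. With 3266 reads in all, it was the most deeply sampled of the 9 genes.

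H2A variants give nucleosomes particular properties. H2afy encodes macroH2A1, an H2A with a large extra domain that is found in silent chromatin, and lies at chr13:56073619-56136361 (-). In TMM-scaled CPM it stood at 58.8, 57.7, 82.1, 62.7 and 61.0 in WT replicates 1 to 5 and 57.0, 75.2, 58.8, 68.3 and 69.4 in Nrf2Act-hep replicates 6 to 10. The genotypes overlapped, with WT replicate 3 the highest library. The fitted difference was 0.07 ± 0.13 (SE).

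H2afx, at chr9:44334694-44336077 (+), encodes H2A.X, which is phosphorylated in the chromatin around DNA breaks. Its TMM-scaled CPM was 10.1, 11.7, 10.8, 16.8 and 7.13 in WT replicates 1 to 5 and 13.6, 23.7, 11.4, 12.8 and 18.5 in Nrf2Act-hep replicates 6 to 10. Its means were 11.3 ± 3.53 CPM in WT against 15.997 ± 5.07 CPM in Nrf2Act-hep (SD, n = 5 each), and the libraries overlapped. The fitted difference of 0.46 ± 0.23 (SE) did not pass the threshold, nor did it in any other setting. It was 0.47 within M and 0.45 within F.

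H2afj, at chr6:136808244-136810074 (+), encodes H2A.J, which in human fibroblasts accumulates in senescent cells. The TMM-scaled CPM values were 19.6, 20.1, 17.2, 20.3 and 17.8 in WT replicates 1 to 5 and 14.9, 16.1, 22.8, 18.8 and 23.4 in Nrf2Act-hep replicates 6 to 10. The WT range lay inside the Nrf2Act-hep range, and the fitted difference was 0.01 ± 0.17 (SE).

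H2afz, at chr3:137864487-137866922 (+), encodes H2A.Z, which marks nucleosomes beside active promoters. It had 143 reads, with TMM-scaled CPM of 5.41, 6.69, 7.64, 7.55 and 6.24 in WT replicates 1 to 5 and 4.26, 7.24, 5.47, 11.1 and 6.16 in Nrf2Act-hep replicates 6 to 10. The genotypes overlapped, and the difference of 0.05 ± 0.24 (SE) was not distinguishable from 0 at this depth. Together with H2afv, the 4 H2A variant genes summed to 128.3 to 150.9 CPM in WT against 120.5 to 155.2 CPM in Nrf2Act-hep, and H2afy held 43.1% to 54.4% of the sum.

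The genes closest to Hist1h1c in their profile over the 10 libraries were Rnf125, Mt2 and Mt1. Likeness was the mean absolute difference between centred log2(CPM + 1) profiles, computed against 8074 genes; it was 0.14 for Rnf125, 0.22 for Mt2 and 0.27 for Mt1, with a median of 0.68 over all genes. Rnf125, which encodes a ubiquitin ligase, had mean levels of 131.4 CPM in WT M, 379.1 CPM in WT F, 157.3 CPM in Nrf2Act-hep M and 130.9 CPM in Nrf2Act-hep F. Mt1 and Mt2, which encode metal-binding metallothioneins, also had their highest 3 values in the WT F libraries. H3f3b was the fourth closest of the 8074 genes and H1f0 ranked 24. For H1f0 the closest were Clpx, Rnf144a and Skil, at 0.16, 0.16 and 0.17 against a median of 0.53, with Hist1h1c at rank 488. The 10 libraries are shared by all these profiles, and the values describe them only.

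**Figure D4:**
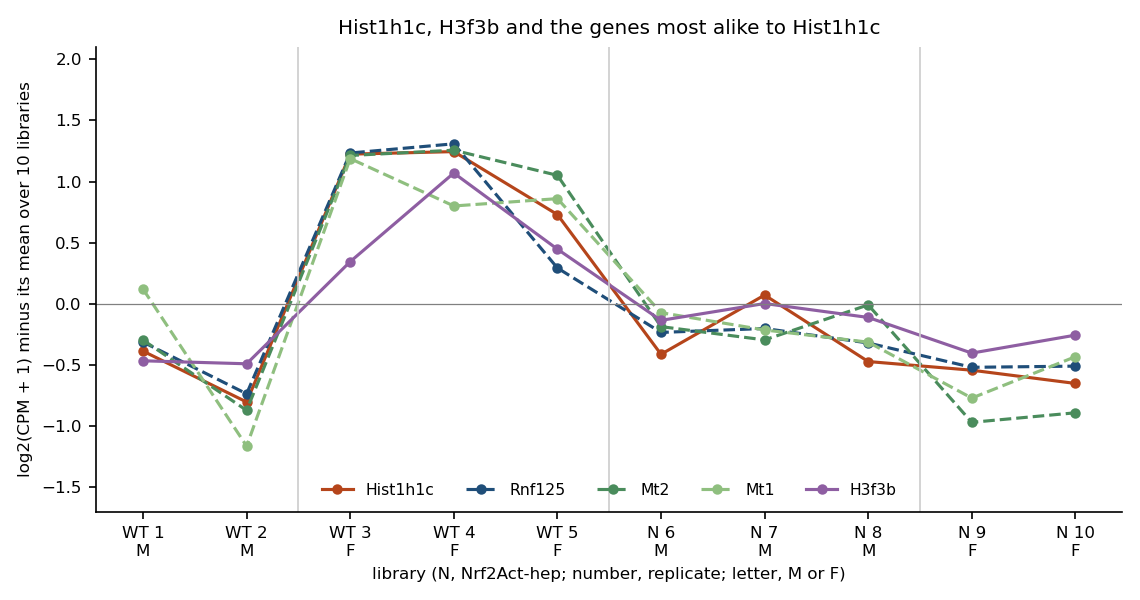
Level of Hist1h1c and H3f3b (solid lines) and of the 3 genes with the profile closest to Hist1h1c (dashed) in each library, as log2(CPM + 1) minus the gene's own mean over the 10 libraries, with libraries ordered by genotype and letter. All 5 genes are highest in the 3 WT F libraries, where H3f3b peaks in WT replicate 4.

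The promoters of Hist1h1c and H3f3b are printed as examples from the genes that were high in the WT F libraries, as H1f0 also was. Both printed promoters come from RefSeq (GRCm38.p6), which matched 7 of the 9 genes; H2afx and Hist1h2bc were not matched. Each runs from 250 bases before to 50 bases after the start of transcription, at chr13:23738557-23738856 (+) for Hist1h1c and chr11:116024455-116024754 (-) for H3f3b. Capitals mark each CCAAT box, the TATAAA of a TATA box and, in Hist1h1c, the H1 box of linker histone promoters, which reads AAACACA.
Hist1h1c: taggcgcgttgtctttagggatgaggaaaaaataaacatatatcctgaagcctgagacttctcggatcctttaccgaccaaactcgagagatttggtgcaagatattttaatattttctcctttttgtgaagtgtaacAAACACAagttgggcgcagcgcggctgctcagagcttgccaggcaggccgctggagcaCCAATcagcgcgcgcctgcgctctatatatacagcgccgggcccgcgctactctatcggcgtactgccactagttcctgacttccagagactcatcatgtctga
H3f3b: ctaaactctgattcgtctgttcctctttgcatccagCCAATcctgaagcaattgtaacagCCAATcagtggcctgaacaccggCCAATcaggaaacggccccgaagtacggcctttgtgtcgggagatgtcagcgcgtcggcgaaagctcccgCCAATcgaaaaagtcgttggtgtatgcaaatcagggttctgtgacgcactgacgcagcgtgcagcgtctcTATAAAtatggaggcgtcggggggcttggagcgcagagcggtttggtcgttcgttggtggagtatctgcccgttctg

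All motifs were searched on both strands of 32851 RefSeq promoters of this length. Hist1h1c held CCAAT 54 bases before its start and AAACACA 112 bases before it. H3f3b held CCAAT at 4 places and TATAAA 27 bases before its start. CCAAT was in 5 of 7 promoters here and 37.4% of all, TATAAA in 1 and 13.6%, and AAACACA in 2 and 7.18%. The core of the antioxidant response element that NRF2 binds, TGACNNNGC, was in 1 of 7 (H3f3b, 48 bases before the start) and 12.4% of all. The core of the metal response element, TGCACNC or TGCGCNC, was in 3 of 7 (Hist1h1c, H2afy and H3f3b) and 25.7% of all; in H3f3b, 1 of its 2 matches overlapped the antioxidant match. The glucocorticoid response element was in 0 of 7 and 0.475% of all. The promoter of H1f0, which was also high in the WT F libraries, held 0 matches to each of these motifs. A match is a description of letters and not of binding.

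Genes that make, tail, carry and place histones were examined as lists beside the 9 genes. Over 8 lists with 70 genes that passed the filter, 0 rose and 2 fell in Nrf2Act-hep (limma, adjusted p under 0.05), against 4.64% called over all genes, with a median difference of -0.06. DESeq2 called 0 of the 70, with 6 at an unadjusted p under 0.05. Of 12 genes for processing the 3′ end of histone messages, 9 passed the filter and 1 fell. This was Casp8ap2, which encodes FLASH, a factor needed for cleavage at the stem-loop. Its level was 22.6 ± 2.83 CPM in WT against 14.2 ± 3.05 CPM in Nrf2Act-hep (SD, n = 5 each), a difference of -0.66 ± 0.18 (SE, limma, adjusted p = 0.034). The libraries of the genotypes overlapped, and the call was lost in 13 of 22 other settings.

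Of 26 histone chaperones, 22 passed the filter, 0 rose and 1 fell. It was Nasp, a chaperone of H1 and H3-H4, at 25.002, 26.8, 21.7, 20.9 and 29.0 CPM in WT replicates 1 to 5 and 15.8, 17.3, 15.5, 15.5 and 16.01 CPM in Nrf2Act-hep replicates 6 to 10. All Nrf2Act-hep libraries lay below all WT libraries, with a difference of -0.60 ± 0.16 (SE, limma, adjusted p = 0.028). The call was lost in 11 of 22 other settings, with DESeq2 among them. The H3.3 chaperone gene Atrx was at 125.5 ± 8.25 CPM in WT against 118.5 ± 9.86 CPM in Nrf2Act-hep and was not called. The differences of Hira and Daxx were -0.09 and -0.38, and neither was called.

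In the remaining lists no gene was called between the genotypes by limma, edgeR or DESeq2. This covered 14 of 15 genes of cleavage and polyadenylation, 9 of 13 genes of H2A.Z exchange, 11 of 19 genes of the H2A.X pathway and p53 targets, 3 of 24 genes of S phase and proliferation, H2afv of 6 other variants and Hist1h1e of the 63 clustered genes. At an unadjusted p under 0.05 the limma counts were 2, 0, 1, 1, 0 and 0. Pabpc1, the main cytoplasmic poly(A)-binding protein, was at 463.8 ± 32.4 CPM in WT against 492.8 ± 62.2 CPM in Nrf2Act-hep (SD, n = 5 each). Cdkn1a, the p53 target that encodes the cell cycle inhibitor p21, was at 228.7 ± 123.7 CPM and 102.1 ± 76.4 CPM, a difference of -0.98 ± 0.45 (SE) with a limma adjusted p of 0.34. Without Nrf2Act-hep replicate 9 the difference was -0.47, and the other Nrf2Act-hep F library, replicate 10, stood at 234.0 CPM. In WT its 3 highest values were also those of the F libraries, at 357.2, 335.6 and 248.5 CPM. Of the 24 genes of S phase and proliferation, 21 did not pass the filter. Ccnd1, a cyclin of the G1 phase, was the 1 gene of the histone-related lists called between the letters. It was higher in F by 0.83 (limma, adjusted p = 0.019), a call lost in 6 of 20 other settings.

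**Figure D5:**
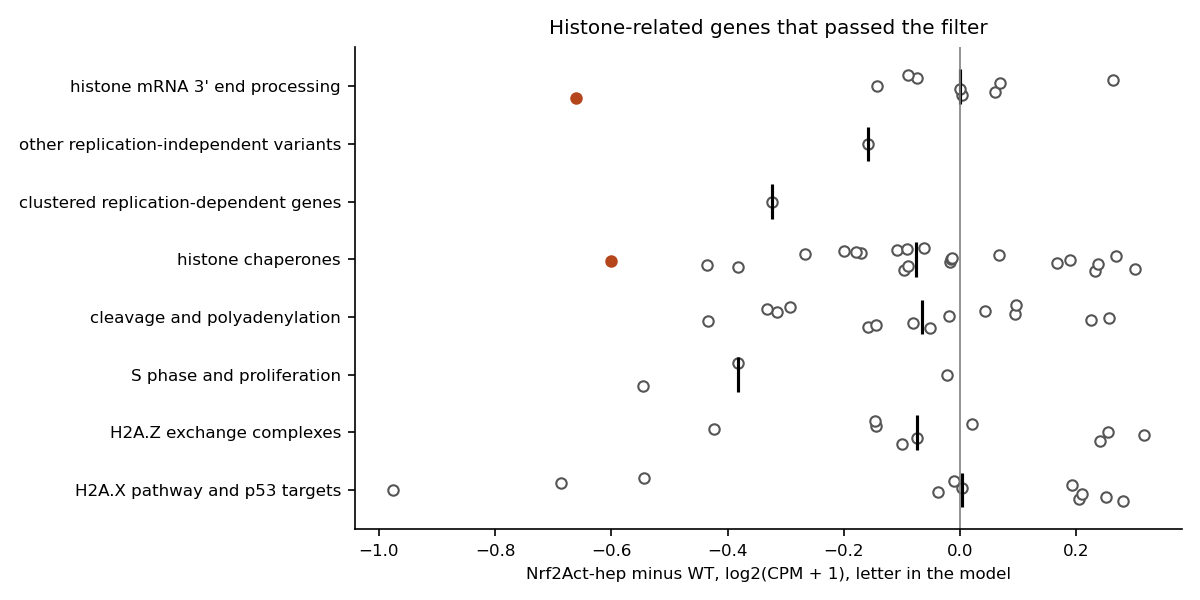
Fitted difference between Nrf2Act-hep and WT on the log2(CPM + 1) scale for the 70 genes of 8 histone-related lists that passed the filter, as 1 circle per gene, filled where the limma adjusted p was under 0.05, with a black bar at the median of each list. Casp8ap2 (-0.66) and Nasp (-0.60) are the 2 filled circles, and Cdkn1a (-0.98) lies furthest to the left.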

How the data were processed

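Liver RNA of 5 WT and 5 Nrf2Act-hep libraries was made into QuantSeq 3′ FWD libraries and sequenced as single reads of 75 bases, per the labels' protocols. The authors deposited 1 table of CPM values. Coordinates are on GRCm38, the build that the submitters' processing notes name. Not given in the sources used here are the aligner, the counting tool, the annotation and the strand setting. In the deposited CPM table, 100% of values were whole multiples of the value of 1 read, within 0.01 read, which gave the reads. Floors cover counting error only. Symbols came from GENCODE M21 for 18799 identifiers; 70 had none.

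The main test was limma 3.58.1 (trend, robust) in R 4.3.3. It used log2(CPM + 1) of values scaled by TMM factors from edgeR 4.0.16. Genes needed 10 reads at the median depth (4.50 CPM) in 5 or more libraries, and 15 reads or more over all libraries. The pseudocount of 1 understates changes of low genes. Benjamini-Hochberg adjustment ran over 8075 genes, with a threshold of 0.05. The genotype model held the letter, the letter model held genotype, and a further model held their product. Alternatives were edgeR and DESeq2 1.42.0 on the recovered reads, other scalings, filters, pseudocounts and covariates, each letter alone, and each library left out. The fits were tested on simulated data. All 9 genes were named, and from each list up to 4 called genes by size, or the 2 with the highest level where fewer than 2 were called. The 9 genes and all lists were chosen with earlier results of these data known.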

Additional observations from a re-analysis of the deposited data

Results flagged for a closer look

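In 18 groups of 5 libraries (9 genes in each genotype), the library furthest from the others was compared with the range of its group; chance marks about 1 in 20 such groups. Hist1h1c was highest in Nrf2Act-hep replicate 7, at 126.6 CPM where the other 4 had 76.3 to 90.2 CPM, and the gap to the nearest library was 0.724 of the range. H2afy was highest in WT replicate 3, at 82.1 CPM where the other 4 had 57.7 to 62.7 CPM, a gap of 0.797 of the range.

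The genotype difference of Hist1h1c was lower in F than in M by -1.99 on the log2 scale, and this passed the threshold in the test over all genes. The contrast was known when the gene was listed, so the call is not support for the difference. For H3f3b every Nrf2Act-hep M library was above every WT M library and every Nrf2Act-hep F library was below every WT F library. Over all genes, 32.6% did not overlap between the genotypes within M and 26.7% within F, in either direction. The F effect minus the M effect of H3f3b was -1.35. That opposite movement rests on the library values, and the difference did not pass the threshold in the limma fit. The sum of the neutrophil markers was higher in the WT F libraries behind both results, though Retnlg alone overlapped with other libraries. The part of these cells was not tested.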

How the results depend on the processing

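No paired analysis was possible because the replicate numbers run from 1 to 10 with none shared between the genotypes. No named value that passed its threshold changed sign. Calls between the genotypes over all genes numbered 375, 130 with the F libraries alone, and 245 to 345 with 1 library left out; the lowest, 245, left out WT replicate 1, and leaving out Nrf2Act-hep replicate 7 gave 248. On the deposited scale with no TMM factor, which moved the median of all genes from 0.01 to 0.13, 384 genes were higher and 80 lower, against 225 and 150. Of the histone genes, 1 was called, 0 with the M libraries alone and 3 with the F libraries alone. Genes called in the histone-related lists fell from 2 to 0 with DESeq2, on the deposited scale, with no filter, and with either letter alone, and were 0 to 2 with 1 library left out. Calls between the letters were 94, 47 without the genotype term, and 57 (without WT replicate 2) to 147 (without Nrf2Act-hep replicate 9) with 1 library left out. For the difference of differences, 2 genes were called, 15 with DESeq2, 18 with no filter, and 1 to 12 with 1 library left out. Of the histone genes 1 was called there, 2 with DESeq2 and with no filter, and 0 to 2 with 1 library left out: 0 without WT replicate 2, and 2 without WT replicate 3 or 5. Hist1h2bc, H2afj, H2afy and H2afz changed the sign of a genotype difference near 0 in 5, 6, 1 and 5 settings, and Hist1h1c and H3f3b did so with the M libraries alone. The cause of these changes was not tested. Depth limits H2afx, H2afz and H3f3a most, at 290, 143 and 84 reads over all libraries.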
